A study of Mus musculus with 42 samples.

Results

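The acute response of the mouse liver to corticosterone was examined in animals that also received enzalutamide. Of the 42 liver RNA-seq libraries of the series, 12 were chosen by their titles for this comparison. They are 6 livers of mice given corticosterone plus enzalutamide (CORT+ENZA, mice L6A, L12A, L18A, L24A, L30A and L36A) and 6 livers of mice given enzalutamide alone (ENZA, mice L5A, L11A, L17A, L23A, L29A and L35A). All were male mice of strain C57B6/J in the acute arm, and both groups carried enzalutamide, so corticosterone was the only labelled difference between them. The 6 vehicle and 6 corticosterone (CORT) mice of the acute arm, libraries not shared with the comparison, gave the corticosterone effect without enzalutamide beside it. The sources used here do not give doses, routes, hours after treatment, age or the state of the adrenals and testes. The series addresses how glucocorticoid and androgen signalling interact in liver.

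Corticosterone is the main circulating glucocorticoid of mice. It binds the glucocorticoid receptor (gene Nr3c1), which moves to the nucleus, binds DNA as a dimer at palindromic response elements, induces genes of fuel metabolism and of its own feedback, and represses inflammatory genes. Enzalutamide is an antiandrogen drug used in prostate cancer. In male rodent liver, androgen and the pulsatile secretion of growth hormone together maintain a male pattern of cytochrome P450, urinary protein and complement genes.

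The glucocorticoid response element was searched in the promoters of the genes that changed, because a palindrome near the start site is the sequence feature most directly linked to the receptor. The motif was GNACANNNTGTNC, which is its own reverse complement, in windows from 250 bases before to 50 bases after the start site (RefSeq, GRCm38.p6). It occurred in 5 of the 110 genes that rose and had a promoter in the table (4.55%), in 0 of 73 that fell, and in 39 of 10304 tested genes (0.378%). The 5 genes were Fam107a, Map3k6, Mt1, Serpina3n and Serpina3c, of which the last 2 are neighbouring paralogs with the same match. Without each of the 12 libraries in turn, 2 to 4 genes called higher held the palindrome (1.82% to 5.45% of those with a promoter). Fam107a and Map3k6 were among them every time, while the adjusted p of Mt1, Serpina3n and Serpina3c lay between 0.0395 and 0.049 with all libraries, and neither Mt1 nor Serpina3n passed without mouse L30A. The stricter 15-base form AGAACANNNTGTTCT was in none of the promoters of changed genes and in 2 of 13221 promoters of tested genes. The half-site AGAACA, on either strand, was in 13.7% of the promoters of higher genes, 9.09% of those of lower genes and 13.1% of those of all tested genes. A match describes the letters only, and no binding was measured.
The promoters of 4 of these genes are printed 5′ to 3′ on the strand of the gene, in lower case with the match in capitals, to show where it lies:
Fam107a (chr14:8309728-8310027, minus strand): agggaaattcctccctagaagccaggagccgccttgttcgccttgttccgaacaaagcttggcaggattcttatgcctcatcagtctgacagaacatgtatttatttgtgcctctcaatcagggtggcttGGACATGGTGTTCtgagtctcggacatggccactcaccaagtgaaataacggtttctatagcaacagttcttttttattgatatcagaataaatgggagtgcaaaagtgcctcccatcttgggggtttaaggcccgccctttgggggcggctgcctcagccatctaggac
Map3k6 (chr4:133240568-133240867, plus strand): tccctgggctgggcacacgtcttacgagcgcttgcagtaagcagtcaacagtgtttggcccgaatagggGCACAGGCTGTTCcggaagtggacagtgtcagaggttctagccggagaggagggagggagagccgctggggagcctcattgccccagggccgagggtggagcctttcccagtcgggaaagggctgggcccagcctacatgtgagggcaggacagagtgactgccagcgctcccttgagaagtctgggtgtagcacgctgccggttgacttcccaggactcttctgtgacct
Mt1 (chr8:94178839-94179138, plus strand): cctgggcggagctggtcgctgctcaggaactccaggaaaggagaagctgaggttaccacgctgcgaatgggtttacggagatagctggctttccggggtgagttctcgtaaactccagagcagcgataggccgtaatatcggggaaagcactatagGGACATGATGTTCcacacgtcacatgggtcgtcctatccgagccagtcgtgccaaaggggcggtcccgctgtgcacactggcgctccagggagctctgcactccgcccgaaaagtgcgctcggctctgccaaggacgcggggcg
Serpina3n (chr12:104406458-104406757, plus strand): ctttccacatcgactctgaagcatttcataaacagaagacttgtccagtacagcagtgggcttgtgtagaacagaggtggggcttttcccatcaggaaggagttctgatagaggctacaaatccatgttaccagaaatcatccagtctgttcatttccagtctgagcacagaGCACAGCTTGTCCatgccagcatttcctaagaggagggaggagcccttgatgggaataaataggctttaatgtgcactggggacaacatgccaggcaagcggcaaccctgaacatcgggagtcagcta
The match starts 120 bases before the start site in Fam107a, 181 in Map3k6, 94 in Mt1 and 78 in Serpina3n.

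The 12 libraries held 18674151 to 20464521 counts in genes, and 13733 genes were tested over the acute arm. Counts in genes were lower in CORT+ENZA than in ENZA libraries (19152231 ± 435281 against 19884993 ± 414933, SD, n = 6 each, two-sided exact permutation p = 0.0173), and unaligned read pairs made up 7.97 ± 1.46% against 5.13 ± 1.69% (exact p = 0.0152). Neither passed adjustment over 21 such library measures (adjusted p = 0.0909 for both), and their part in the results was not tested. The hepatocyte markers Alb and Apoa1 were at 75414 and 10486 CPM (read counts scaled to a common library size by TMM) in CORT+ENZA and at 88505 and 8427 CPM in ENZA. Single mice stood apart in ways that touch results below. ENZA mouse L29A had the highest summed T and NK cell, Kupffer cell and neutrophil markers of its group, CORT+ENZA mouse L30A had acute phase transcripts far above the other 5, and CORT+ENZA mouse L36A had the highest mitochondrial share (11.5% against 8.06% in the lowest) and lay apart on the second principal component. Values without them are given beside many of the results they touch. Vehicle mouse L19A, which enters the effect without enzalutamide, had the lowest values of the acute arm on the first 2 principal components (-37.6 and -45.2). Without L19A and L36A together, that effect had 323 called genes against 222 with all libraries.

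With enzalutamide on both sides, corticosterone changed 248 of 13733 genes (1.81%) at an adjusted p under 0.05 (edgeR quasi-likelihood test with Benjamini-Hochberg adjustment). Of these, 148 rose (1.08%) and 100 fell (0.728%), and 66 had a log2 fold change of at least 1 in size. The changed genes ranged from feedback and lipid droplet genes that rose to B cell, sterol synthesis and female-biased cytochrome P450 genes that fell. Non-overlapping values in the 6 mice of both groups were found for 293 genes (2.13%), among them 98 of those that rose and 50 of those that fell. When each of the 12 libraries was left out in turn, 87 of the 248 genes stayed past the threshold every time (59 higher and 28 lower). The count fell to 118 without L12A, 126 without L17A, 133 without L35A, 142 without L6A, 145 without L5A and 157 without L29A.

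Without enzalutamide, corticosterone changed 222 genes (1.62%), 130 of them higher (0.947%) and 92 lower (0.67%). The 2 lists shared 82 genes, which were 33.1% of the genes called with enzalutamide and 36.9% of those called without it, and all 82 moved the same way. Of the 248 genes, 243 had the same sign in both settings. The 148 genes that rose had a median log2 fold change of 0.70 with enzalutamide and 0.50 without, and the 100 that fell had medians of -0.59 and -0.36. The first value of each pair was used to choose the genes and the second was not. No gene passed the test of the difference between the 2 effects (0 of 13733, smallest adjusted p = 0.994 with edgeR, and 0 with DESeq2 and limma-voom). An unadjusted p under 0.05 was found for 501 genes, below the 687 expected from the threshold alone. For the 166 genes called with enzalutamide alone, a difference between the settings was therefore not shown.

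**Figure D1:**
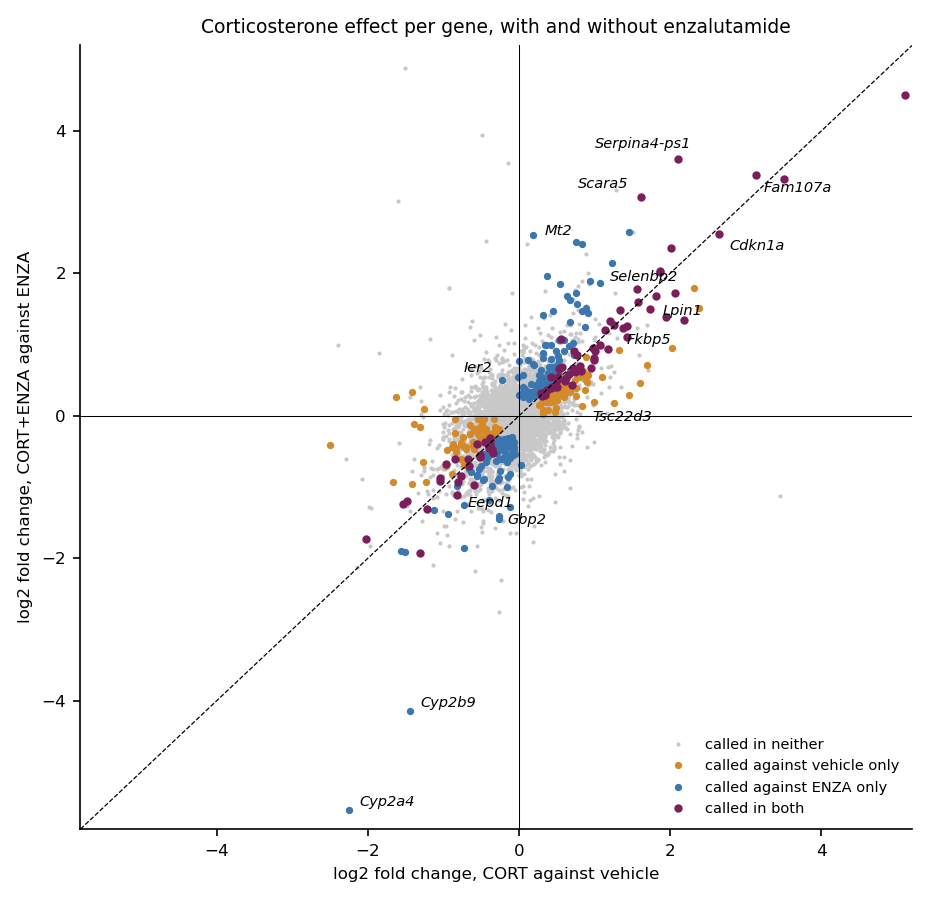
Log2 fold change of each of 13733 genes for CORT against vehicle (x axis) and CORT+ENZA against ENZA (y axis), coloured by where the gene passed an adjusted p of 0.05, with the line of equal effects dashed. The 82 genes called in both lie in the upper right and lower left, with Scara5 and Serpina4-ps1 above the dashed line, while Cyp2a4 and Cyp2b9 lie farthest below it among called genes.

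Genes known to be induced by glucocorticoids in liver or other tissues rose together in part. Of 29 measured, 9 rose (31% against the background of 1.08%) and none fell, and the list median was 0.42 against 0.00 for all genes. The 9 were Fkbp5, Zbtb16, Cdkn1a, Errfi1, Mt1, Mt2, Lpin1, Fam107a and Map3k6. Without enzalutamide 7 of the 29 rose, with the same median of 0.42. Fkbp5, an immunophilin that holds the glucocorticoid receptor in a low-affinity state, was at 52.3, 73.3 and 93.3 CPM (lowest, median, highest) in ENZA mice and at 130, 178 and 195 CPM in CORT+ENZA mice. The groups did not overlap, and Fkbp5 rose 2.41-fold (log2 1.27 ± 0.24 SE, adjusted p = 0.00661). Its effect without enzalutamide was 1.26 ± 0.24 (adjusted p = 0.00595), and the difference of 0.01 ± 0.33 had an unadjusted p of 0.981. Cdkn1a, the gene of the cell cycle inhibitor p21, was at 1.63, 2.21 and 3.39 CPM in ENZA mice and at 4.15, 14.6 and 23.6 CPM in CORT+ENZA mice. It rose 5.88-fold (2.56 ± 0.38, adjusted p = 0.000881), again with no overlap, and by 2.65 ± 0.37 without enzalutamide. Cdkn1a was the only called gene among 19 measured proliferation genes (5.26% higher against 1.08% of all genes).

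Fam107a, an actin-associated stress gene, rose from a median of 0.747 CPM to 6.6 CPM (3.38 ± 0.66, adjusted p = 0.00941). Its highest value, 18.9 CPM, was in L30A, and the log2 fold change without that mouse was 2.96 (adjusted p = 0.0229). Map3k6, a stress-activated MAP kinase kinase kinase, was at 3.2 to 6.88 CPM in ENZA and at 7.36 to 11.4 CPM in CORT+ENZA mice (0.94 ± 0.20, adjusted p = 0.0121). Both carry the palindrome printed above, and both also rose without enzalutamide (3.13 ± 0.58 and 1.18 ± 0.20). Errfi1, a feedback inhibitor of the epidermal growth factor receptor, rose by 0.91 ± 0.18 (adjusted p = 0.00872). Zbtb16, a zinc finger transcription factor, was at 4.9, 7.89 and 28.8 CPM in ENZA and at 21.3, 30.3 and 36.2 CPM in CORT+ENZA mice. Only ENZA mouse L11A reached into the CORT+ENZA range, and the call (1.39 ± 0.35, adjusted p = 0.0414) was lost without any of 11 of the 12 libraries, at adjusted p up to 0.097.

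The metallothioneins Mt1 and Mt2, small metal-binding proteins, had wide spreads. Mt1 was at 32, 46.8 and 131 CPM in ENZA and at 78.5, 188 and 427 CPM in CORT+ENZA mice, with L17A highest among the former and L24A lowest among the latter, so the groups overlapped. Mt1 rose 3.9-fold (1.96 ± 0.48, adjusted p = 0.0395) and Mt2 5.34-fold (2.42 ± 0.55, adjusted p = 0.0244). Without L30A their log2 fold changes were 1.70 and 2.06 and both calls were lost (adjusted p = 0.0793 and 0.0538). The Mt1 call was lost without any of 9 libraries and the Mt2 call without any of 6 (adjusted p up to 0.0875 and 0.0603). Vehicle and CORT medians were 146 and 292 CPM for Mt1, and the effect without enzalutamide was 0.37 ± 0.47 (adjusted p = 0.784). Vehicle mice L31A and L1A were at 532 and 317 CPM, against 64.6 to 165 CPM in the other vehicle mice. The CORT mice were at 220 to 332 CPM. The difference between the Mt1 effects was 1.60 ± 0.66, with an unadjusted p of 0.0256 and an adjusted p of 0.994.

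Other classical targets did not pass. Tsc22d3, the leucine zipper protein GILZ and a widely used marker of glucocorticoid action, was at 27.7, 35 and 54.5 CPM in ENZA and at 31.6, 41.5 and 49.3 CPM in CORT+ENZA mice. The CORT+ENZA values lay inside the ENZA range, with a log2 difference of 0.14 ± 0.17 (adjusted p = 0.792), whereas Tsc22d3 rose by 0.83 ± 0.17 without enzalutamide (adjusted p = 0.0092). The difference between these effects was -0.69 ± 0.24 (unadjusted p = 0.00809, adjusted p = 0.994). The clock gene Per1 was at medians of 33.1 and 33.5 CPM (0.20 ± 0.31, adjusted p = 0.841). Among 20 clock genes, Per3, a repressor of the circadian loop, was the one that passed (5% lower against 0.728% of all genes). Its log2 fold change was -0.60 ± 0.14 (adjusted p = 0.0229), and L18A, at 67.7 CPM, overlapped the ENZA range of 64.7 to 91.2 CPM. Without L17A, L35A, L6A or L12A the Per3 call was lost, at adjusted p up to 0.0606, and without L17A Nfil3 passed as a higher gene.

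**Figure D2:**
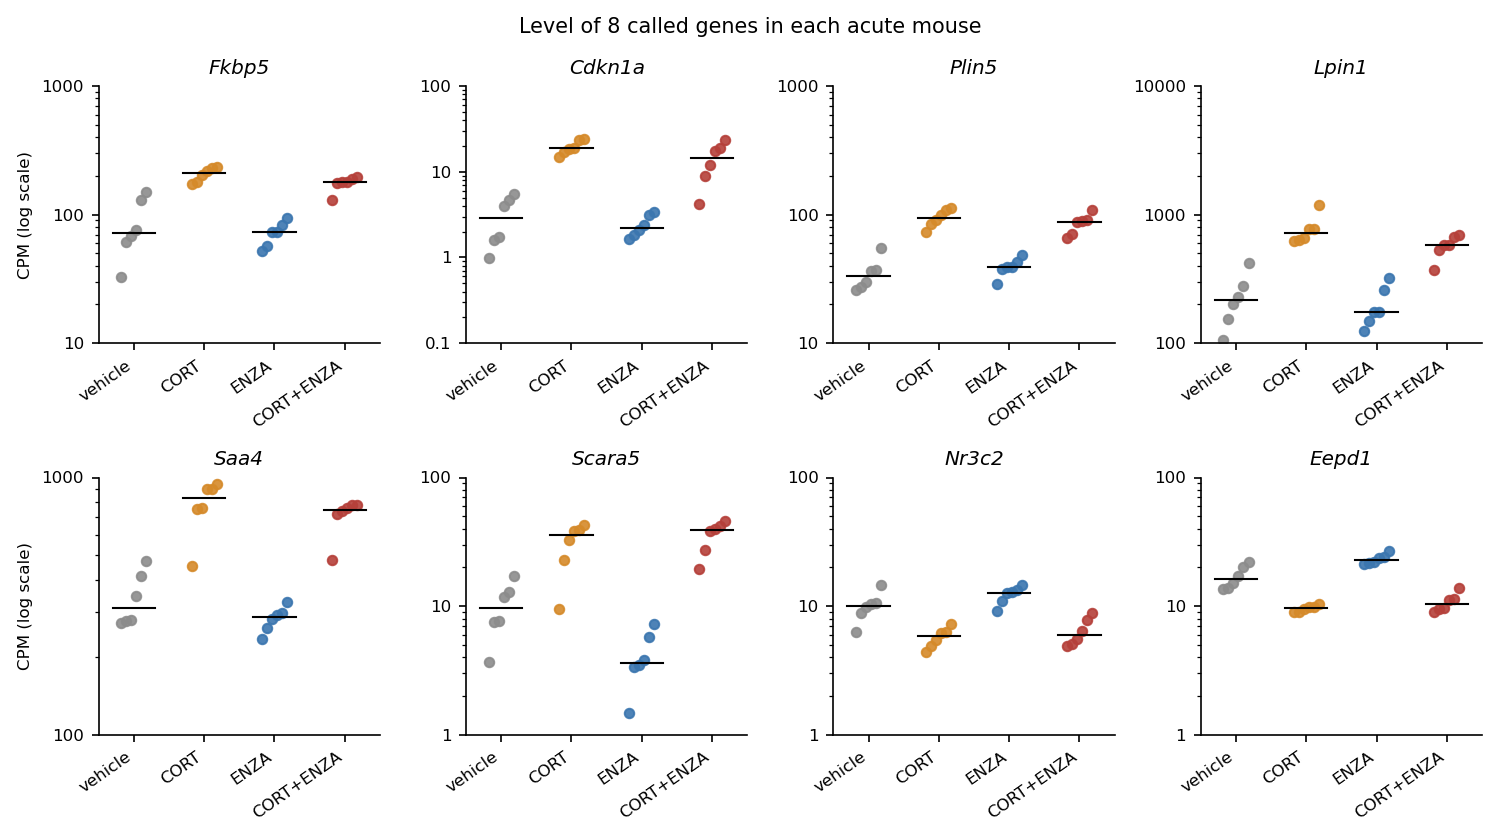
CPM on a log scale of 8 genes in each acute mouse of the vehicle, CORT, ENZA and CORT+ENZA groups (6 points a group, horizontal lines at the medians). CORT+ENZA mice lay entirely above ENZA mice for Fkbp5, Cdkn1a, Plin5, Lpin1, Saa4 and Scara5 and entirely below them for Nr3c2 and Eepd1.

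Of 18 measured genes of the steroid receptors and of hormone handling, 1 rose and 1 fell (5.56% each, against 1.08% and 0.728% of all genes). Their log2 fold changes lay between -0.93 and 0.99. Nr3c1 was at 66.9, 72.5 and 87.6 CPM in ENZA and at 51.5, 72.9 and 86.5 CPM in CORT+ENZA mice (-0.08 ± 0.12, adjusted p = 0.838). Hsd11b1, the enzyme that regenerates active corticosterone in hepatocytes, was at medians of 426 and 365 CPM (-0.19 ± 0.09, adjusted p = 0.294). Nr3c2, the mineralocorticoid receptor that also binds corticosterone, was at 9.24, 12.8 and 14.5 CPM in ENZA and at 4.91, 5.98 and 8.85 CPM in CORT+ENZA mice. It fell 1.9-fold with no overlap (-0.93 ± 0.17, adjusted p = 0.00461) and also fell without enzalutamide (-0.81 ± 0.17, adjusted p = 0.0124). Hsd17b2, which oxidises active sex steroids to weaker forms, rose 1.33-fold (0.41 ± 0.11, adjusted p = 0.0442), with overlapping mice and a call that was lost without any of 10 libraries (adjusted p up to 0.113). Serpina6, the corticosteroid-binding globulin that carries the hormone in plasma, was at a log2 difference of -0.69 ± 0.19 (adjusted p = 0.0595) with enzalutamide. It passed without L23A, L30A or L36A, without L19A and L36A together, with DESeq2, with limma-voom and with mouse-number sets as a term. Serpina6 fell by 0.73 on the log2 scale without enzalutamide (adjusted p = 0.0452). Hsd3b5, a steroid dehydrogenase, was at 0.99 ± 0.30 (adjusted p = 0.0926) and passed without L30A, with DESeq2 and with limma-voom, but is uncertain with 21.2% of its stretches shared. Both were singled out after their values were seen.

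Part of the lipid droplet genes rose. Of 15 measured lipid droplet and lipolysis genes 3 rose (20% against 1.08% of all genes) and none fell, with a median of 0.28. Plin5, the perilipin that ties droplets to mitochondria, was at 29, 39.2 and 48.9 CPM in ENZA and at 66, 88.3 and 109 CPM in CORT+ENZA mice. The groups did not overlap, and Plin5 rose 2.16-fold (1.11 ± 0.16, adjusted p = 0.000384) with enzalutamide and by 1.43 ± 0.16 (adjusted p = 1.91e-05) without. Plin4, another perilipin, rose 3.2-fold (1.68 ± 0.29, adjusted p = 0.00266) and also did not overlap. The perilipins Plin2 and Plin3 were at log2 differences of -0.14 ± 0.14 (adjusted p = 0.724) and -0.16 ± 0.08 (adjusted p = 0.323), and were also picked with values known. Cidec, which fuses droplets, was near 1 CPM, with medians of 0.633 and 1.7 CPM (1.32 ± 0.32, adjusted p = 0.0315), and its call was lost without any of 9 libraries (adjusted p up to 0.0799).

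Among 18 genes of triglyceride assembly 2 rose and 1 fell (11.1% and 5.56%, against 1.08% and 0.728% of all genes). Lpin1, the phosphatidate phosphatase lipin 1, was at 125, 176 and 323 CPM in ENZA and at 373, 580 and 694 CPM in CORT+ENZA mice (1.50 ± 0.27, 2.84-fold, adjusted p = 0.0048), with the lowest CORT+ENZA value in L30A still above every ENZA mouse. Angptl4, a secreted inhibitor of lipoprotein lipase, had medians of 48.5 and 97.1 CPM (0.91 ± 0.23, adjusted p = 0.0403), and the call was lost without any of 10 libraries (adjusted p up to 0.0994). Gpam, the acyltransferase that opens glycerolipid synthesis, was at 173, 261 and 292 CPM in ENZA and at 113, 168 and 191 CPM in CORT+ENZA mice. It fell 1.56-fold (-0.64 ± 0.15, adjusted p = 0.0244), with the lowest ENZA mouse inside the CORT+ENZA range, and the call was lost without any of 5 libraries (adjusted p up to 0.064).

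Fatty acid and cholesterol synthesis genes lay lower as lists, although few members passed. Of 21 fatty acid synthesis genes, 2 fell (Fasn and Gpam, 9.52% against the background of 0.728%) and 18 lay below 0, with a median of -0.51. Without enzalutamide none of the 21 passed and the median was -0.03. Fasn, fatty acid synthase, was at 1193, 2195 and 2664 CPM in ENZA and at 553, 775 and 1369 CPM in CORT+ENZA mice. The groups overlapped through the 2 lowest ENZA and the highest CORT+ENZA mice, and Fasn fell 2.27-fold (-1.18 ± 0.29, adjusted p = 0.0351). The Fasn call was lost without any of 8 libraries (adjusted p up to 0.088). Neither Fasn nor Gpam passed without L11A, L12A, L29A or L36A. The list median was -0.49 without L29A and -0.38 without L29A and L36A together. Median Fasn levels were 1279 CPM in vehicle and 663 CPM in CORT mice (-0.40 ± 0.29, adjusted p = 0.56), and the difference between the effects was -0.78 ± 0.41 (unadjusted p = 0.0677).

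All 24 cholesterol synthesis genes lay below 0, with a median of -0.33, and 2 fell (8.33% against 0.728% of all genes). Sc5d, sterol C5-desaturase, was at 554, 691 and 753 CPM in ENZA and at 361, 451 and 490 CPM in CORT+ENZA mice and fell 1.5-fold with no overlap (-0.59 ± 0.13, adjusted p = 0.0199). Mvd, mevalonate diphosphate decarboxylase, was at 34.3, 46.9 and 58.6 CPM in ENZA and at 14.7, 20.7 and 48.6 CPM in CORT+ENZA mice (-0.89 ± 0.22, adjusted p = 0.0351). Mouse L24A alone lay in the ENZA range, and without it 6 of the 24 fell, the further 4 being Fdft1, Hmgcs1, Lss and Msmo1. The call of Sc5d was lost without L17A (adjusted p = 0.0512) and that of Mvd without any of 8 libraries (adjusted p up to 0.0872). None of the 24 passed without L17A. The list median was -0.39 without L29A and -0.26 without L29A and L36A together. Without enzalutamide none of the 24 passed and 6 lay above 0, with a median of -0.08. For Mvd, the vehicle and CORT medians of 19.3 and 14 CPM lay nearer to the CORT+ENZA median than to the ENZA median.

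None of 18 gluconeogenesis genes passed, with a median of 0.02. Pck1, the enzyme of the first committed step, was at 773, 1387 and 2119 CPM in ENZA and at 1279, 1909 and 2944 CPM in CORT+ENZA mice (0.46 ± 0.25, adjusted p = 0.394). G6pc, which releases free glucose, had medians of 254 and 433 CPM with overlapping mice (0.54 ± 0.31, adjusted p = 0.456), against 1.20 ± 0.32 without enzalutamide (adjusted p = 0.0569). No member passed among insulin signalling and glycogen genes (18), amino acid and urea cycle genes (25), fatty acid oxidation genes (26), growth hormone and STAT5 signalling genes (17), NF-kappaB and chemokine genes (17) or unfolded protein response genes (18). Their medians lay between -0.18 and 0.20. With DESeq2 on all libraries, Cyp4a14 (fatty acid oxidation), Birc3 (NF-kappaB), Xbp1 (unfolded protein response) and Hnf4a (gluconeogenesis) passed. With limma-voom on all libraries, Cyp4a14, Xbp1, Hnf4a, Creb3l3 (gluconeogenesis) and Aass (amino acid catabolism) did. Aass and Hnf4a also passed without L19A and L36A together, Xbp1 in the fit of the 12 libraries and Birc3 with mouse-number sets as a term. With single libraries left out, 1 member passed in each of 3 of these lists, Hnf4a as higher without L36A (gluconeogenesis), Cyp4a14 as lower without L23A (fatty acid oxidation) and Birc3 as lower without L18A (NF-kappaB).

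Male-biased liver genes lay higher and female-biased ones lower. All 26 measured male-biased genes had a log2 fold change above 0, with a median of 0.63, and 3 rose (11.5% against 1.08% of all genes). Without L30A 7 rose, the further 4 being Cyp4a12b, Hsd3b5, Mup11 and Nudt7, and the median was 0.75. C6, a complement component, was at 85.9, 129 and 209 CPM in ENZA and at 200, 280 and 412 CPM in CORT+ENZA mice (1.06 ± 0.22, adjusted p = 0.0129). Cyp7b1, an oxysterol hydroxylase, was at medians of 69.7 and 197 CPM (1.52 ± 0.37, adjusted p = 0.0342). The groups overlapped through L30A at 80.7 CPM, and the call was lost without any of 8 libraries (adjusted p up to 0.0973). Cyp7b1 was also the one called member of 19 bile acid genes (5.26% higher against 1.08% of all genes). Selenbp2 rose 3.63-fold with no overlap (1.86 ± 0.35, adjusted p = 0.00661), but 52% of its 50-base stretches also occur in another gene, so its counts are uncertain. Without enzalutamide 25 of the 26 lay above 0 with a median of 0.47, and none passed. Many of the list's urinary protein and cytochrome genes are near-identical copies.

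Of 15 female-biased genes 3 fell (20% against 0.728% of all genes), and the list median was -0.78 with enzalutamide and -0.68 without. None of the 3 passed without L29A or without L12A, and 1 passed without L17A, L6A, L18A or L24A, while the median without L29A was -0.75. Cyp2g1 was at 2, 4.71 and 8.6 CPM in ENZA and at 1.59, 1.72 and 3.38 CPM in CORT+ENZA mice (-1.32 ± 0.29, adjusted p = 0.0175), and its call was lost without L29A or L12A (adjusted p = 0.0503 and 0.0504). Cyp2a4, a steroid 15-alpha-hydroxylase, ranged from 0.682 to 131 CPM (median 11.3) in ENZA mice and from 0.053 to 4.14 CPM (median 0.264) in CORT+ENZA mice. The fitted log2 fold change was -5.53 ± 1.25 (adjusted p = 0.0244), with L17A and L29A the highest ENZA mice and L36A the highest CORT+ENZA mouse, and the call was lost without any of 6 libraries (adjusted p up to 0.0644). It was -4.68 without L17A and -7.42 without L36A. Cyp2b9, with medians of 4.02 and 0.105 CPM, had a log2 fold change of -4.14 ± 0.99 (adjusted p = 0.0331), which was -3.43 without L35A and -5.27 without L36A, and its call was lost without any of 7 libraries (adjusted p up to 0.0864). Both are uncertain, since 38% of the Cyp2a4 and 11.2% of the Cyp2b9 stretches are shared with other genes. Cyp2b9 was also the one called gene of 23 CAR and PXR targets, the genes induced by xenobiotic receptors (4.35% lower against 0.728% of all genes). Without L30A Abcb1a passed as well.

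**Figure D3:**
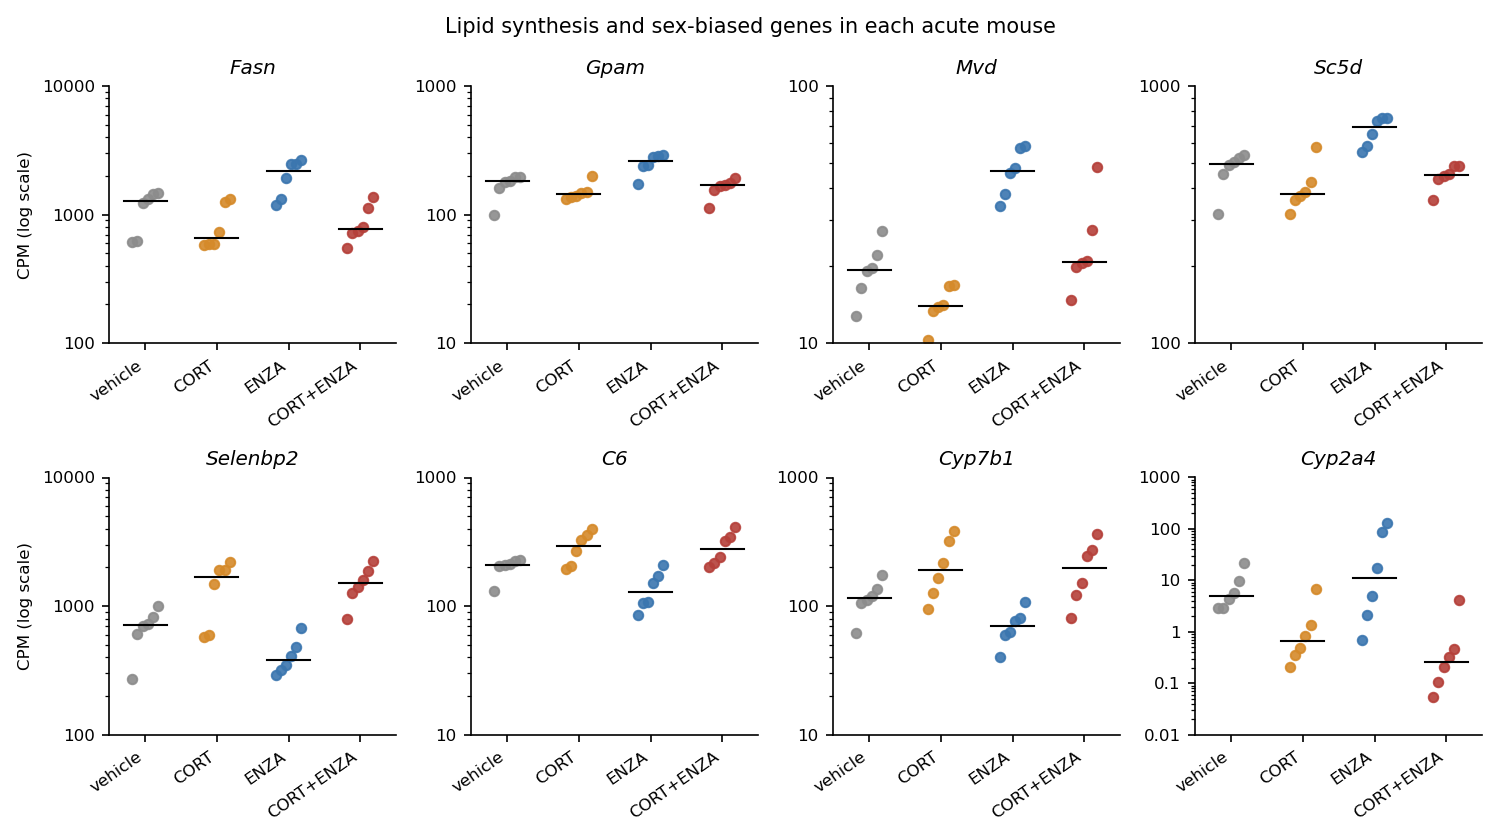
CPM on a log scale of 4 lipid synthesis genes (top) and 4 sex-biased genes (bottom) in each acute mouse, 6 points a group with lines at the medians. ENZA mice had the highest median of the 4 groups for Fasn, Gpam, Mvd, Sc5d and Cyp2a4 and the lowest for Selenbp2, C6 and Cyp7b1.

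Acute phase genes encode plasma proteins made by hepatocytes during inflammation. Over 24 members their log2 fold changes were 0.00 to 4.89, with a median of 0.68, and 3 rose (12.5% against 1.08% of all genes). Without enzalutamide 1 rose and 13 of the 24 lay above 0, with a median of 0.04. Saa4, a constitutive serum amyloid A of lipoproteins, was at 236, 286 and 328 CPM in ENZA and at 479, 751 and 783 CPM in CORT+ENZA mice. It rose 2.52-fold with no overlap (1.33 ± 0.16, adjusted p = 5.81e-05) and by 1.20 ± 0.16 without enzalutamide (adjusted p = 0.000246). Serpina3k, a protease inhibitor, rose 1.62-fold with no overlap (0.69 ± 0.12, adjusted p = 0.00338), though 14% of its stretches are shared with paralogs. Serpina3n, another member of that cluster and a carrier of the palindrome, was at 413, 516 and 540 CPM in ENZA and at 595, 768 and 1939 CPM in CORT+ENZA mice (0.91 ± 0.24, adjusted p = 0.0481), a call lost without any of 10 libraries (adjusted p up to 0.102).

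The inducible members were highest in CORT+ENZA mouse L30A. Vehicle mouse L31A, which enters the effect without enzalutamide, also lay far above its group. It was at 1443 CPM for Saa1 and 181 CPM for Lcn2, against 16.2 to 56.2 and 4.07 to 10.9 CPM in the other vehicle mice. Saa1 was at 3179 CPM in L30A against 34.8 to 105 CPM in the other 5 CORT+ENZA mice and 11.5 to 95.8 CPM in ENZA mice, and the fitted log2 fold change of 3.94 ± 1.37 (adjusted p = 0.156) became 0.87 without L30A. Lcn2, the iron-trapping lipocalin 2, was at 882 CPM in L30A and at 12.6 to 41.8 CPM in the other 5 CORT+ENZA mice, against 58.4 CPM in L29A and 4.29 to 5.9 CPM in the other 5 ENZA mice. Apart from L29A, every ENZA mouse therefore lay below every CORT+ENZA mouse for Lcn2. Its log2 fold change was 3.55 ± 1.27 (adjusted p = 0.172), 0.55 without L30A (adjusted p = 0.841) and 5.02 without L29A (adjusted p = 0.0931). Saa2 and Orm2 were at 4.89 and 3.02, at -0.12 and -0.50 without L30A, and at 5.75 and 3.75 without L29A, with none of these past the threshold. Saa1, Saa2 and Orm2 are uncertain, since 32.1%, 31.8% and 22.7% of their stretches occur in another gene. These 4 and Hp (0.91 ± 0.29, adjusted p = 0.119, and 0.47 without L30A) were singled out after their values were seen. Without L30A the list median was 0.20, Saa4 and Serpina3k kept their calls (adjusted p = 0.000263 and 0.00332) and Serpina3n lost it (0.56, adjusted p = 0.101). Lrg1, a leucine-rich glycoprotein also made in inflammation, was at 620, 796 and 1643 CPM in CORT+ENZA mice, above all ENZA mice (328 to 535 CPM), with a log2 fold change of 1.00 ± 0.22 (adjusted p = 0.0218) and 0.75 without L30A (adjusted p = 0.0446). Its call was lost without L17A or L35A (adjusted p up to 0.0575).

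Interferon-stimulated genes lay lower, with a median of -0.49 over 24 genes, 1 above 0, and 2 that fell (8.33% against 0.728% of all genes). Ifi44 was at 3.77, 4.64 and 8 CPM in ENZA and at 2.34, 2.88 and 3.31 CPM in CORT+ENZA mice (-0.78 ± 0.17, adjusted p = 0.0156), and the call held without L29A, its highest mouse (-0.60, adjusted p = 0.0423). Ddx58, the RNA sensor RIG-I, fell 1.24-fold (-0.31 ± 0.08, adjusted p = 0.0335), a call lost without any of 9 libraries (adjusted p up to 0.0914). Gbp2, an interferon-induced GTPase, was at 21.9 CPM in L29A, at 3.82 to 5.2 CPM in the other ENZA mice and at 2.26 to 3.27 CPM in CORT+ENZA mice. Its log2 fold change of -1.40 ± 0.35 (adjusted p = 0.0391) became -0.65 without L29A (adjusted p = 0.059), and its call was lost without any of 7 libraries (adjusted p up to 0.084). The list median was -0.29 without L29A and -0.32 without L29A and L36A together, when none passed.

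B cell markers fell. Of 10 measured, 6 fell (60% against the background of 0.728%, among them Ighd, Fcer2a, Cd79a, Pax5 and Igkc) and none lay above 0, with medians of -1.06 with enzalutamide and -1.39 without, where 6 fell as well. The log2 fold changes of these 5 ranged from -0.92 for Igkc, an immunoglobulin light chain, to -1.91 for Pax5, a transcription factor of B cell identity. Fcer2a, the low-affinity IgE receptor CD23, was at 0.62, 1.3 and 1.66 CPM in ENZA and at 0.0534, 0.417 and 0.545 CPM in CORT+ENZA mice (-1.73 ± 0.43, 3.31-fold lower, adjusted p = 0.0342), without overlap. Cd79a, a signalling chain of the B cell receptor, had 16 to 52 counts in ENZA and 9 to 13 counts in CORT+ENZA libraries and did not overlap (-1.24 ± 0.31, adjusted p = 0.0351). The summed B cell markers were 19.2 ± 6.18 CPM in CORT+ENZA and 31.1 ± 9.17 CPM in ENZA mice (exact p = 0.0195, adjusted p = 0.0909 over 21 measures), with ranges of 13.8 to 29.2 and 20.5 to 47.3 CPM. The calls of these 5 were each lost without any of 8 to 10 libraries (adjusted p up to 0.126), L29A among them, and without L29A the list median was -0.88. The calls of Cd79a, Pax5 and Igkc were also lost with limma-voom on all libraries. In whole liver, fewer B cells and less RNA per B cell cannot be told apart.

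Other blood cell markers did not pass with all libraries in the edgeR fit. On all libraries, Nkg7 passed as lower with DESeq2, and Lck and the monocyte marker Ly6c2 did with limma-voom. T and NK cell markers summed to 5.56 ± 1.38 CPM in CORT+ENZA (4.72 to 8.34, highest in L36A) and 8.88 ± 5.48 CPM in ENZA mice (4.39 to 19.7, highest in L29A), and their list median of -1.01 over 5 measured genes was -0.59 without L29A. Nkg7, a granule protein of NK and cytotoxic T cells, had the smallest p of them (-1.45 ± 0.40, adjusted p = 0.0577, and 0.0436 without L11A). Lck, a kinase of T cell receptor signalling, was at -1.09 (adjusted p = 0.0932), and at -1.58 without L36A (adjusted p = 0.00957) and -0.78 without L29A (adjusted p = 0.272). Kupffer cell and macrophage markers summed to 487 ± 71.6 and 581 ± 260 CPM, with L29A at 1103 CPM, and the list median of -0.26 was 0.16 without L29A. Neutrophil and monocyte markers summed to 4.84 ± 1.94 and 7.15 ± 4.74 CPM, and of their defining genes Ly6g was at 0 in 5 ENZA and all 6 CORT+ENZA libraries. The part of these cells in the interferon and acute phase values was not tested. Endothelial, stellate, cholangiocyte, erythroid and zonal hepatocyte marker lists had no called member, except that the cholangiocyte marker Sox9 passed as higher without L23A or with limma-voom.

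**Figure D4:**
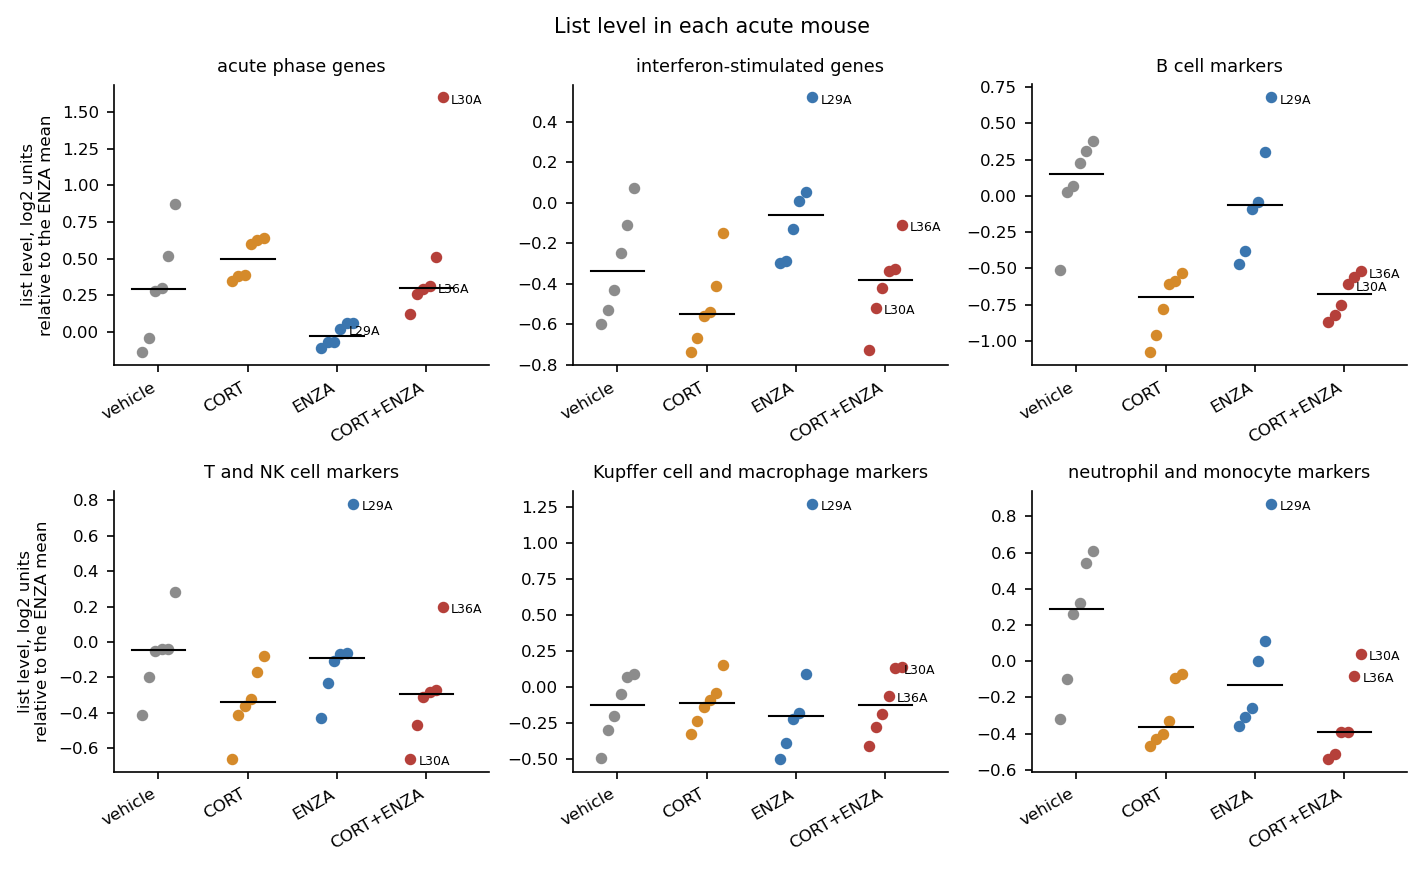
Level of 6 gene lists in each acute mouse, as the median over members of log2(CPM + 0.5) after subtracting each gene's mean in ENZA mice (6 points a group, lines at the medians, mice L29A, L30A and L36A labelled). L30A is highest in the acute phase list and L29A in the other lists, while B cell markers are low in both corticosterone groups.

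Several of the strongest changes were outside these lists. Eepd1 (chr9:25481547-25604110), an endonuclease-domain protein known as a target of the sterol receptor LXR in macrophages, had the smallest p of all genes. It was at 21.4, 22.8 and 26.8 CPM in ENZA and at 8.99, 10.4 and 13.8 CPM in CORT+ENZA mice and fell 2.16-fold (-1.11 ± 0.11, adjusted p = 5.29e-06). Rnf152 (chr1:105276914-105356710), a lysosomal ubiquitin ligase that restrains mTORC1, fell 1.96-fold (-0.97 ± 0.12, adjusted p = 5.81e-05). Scara5 (chr14:65666403-65764826), a ferritin receptor, was at 1.48, 3.63 and 7.21 CPM in ENZA and at 19.5, 39.1 and 45.5 CPM in CORT+ENZA mice. It rose 8.43-fold (3.08 ± 0.39, adjusted p = 0.000237) and by 1.61 ± 0.36 without enzalutamide (adjusted p = 0.0234), a difference of 1.46 ± 0.52 (unadjusted p = 0.0104). The Scara5 medians were 9.67 CPM in vehicle and 35.4 CPM in CORT mice, so the medians of the 2 corticosterone groups lay close and the ENZA median below that of vehicle. Vehicle mice, at 3.65 to 17.2 CPM, overlapped ENZA mice, and CORT mice ranged from 9.53 to 42.8 CPM. ENZA against vehicle was not tested.

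The pseudogene Serpina4-ps1 (chr12:104080649-104086724) rose 12.2-fold (3.61 ± 0.55, adjusted p = 0.00121), from 18.6 to 65.9 CPM in ENZA mice to 177 to 766 CPM in CORT+ENZA mice. Nlrp12, a pattern receptor that dampens NF-kappaB signalling, rose 2.12-fold (1.08 ± 0.15, adjusted p = 0.000237). Ikzf4, the lymphoid transcription factor Eos, rose 3.21-fold (1.68 ± 0.35, adjusted p = 0.0123) with enzalutamide, against 0.64 ± 0.32 without it (adjusted p = 0.376), and the first call was lost without L29A and L36A together (1.57, adjusted p = 0.0651). Eif4ebp3, a translation repressor, rose 2.74-fold (adjusted p = 0.0273), but 65.5% of its stretches are shared, so it is uncertain, and its call was lost without any of 8 libraries (adjusted p up to 0.0684). All 4 had no overlap between the groups.

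Among genes that fell without overlap, Fnip2, a partner of folliculin in nutrient sensing, fell 1.82-fold (-0.87 ± 0.16, adjusted p = 0.00537). Sox5, a transcription factor of the SOX family, fell 1.6-fold (-0.67 ± 0.14, adjusted p = 0.0125), and both also fell without enzalutamide (-1.04 ± 0.16 and -0.96 ± 0.14). Svil (supervillin), Pqlc1, Tmem131l, Tnfrsf19 and Fgfrl1, a decoy receptor for fibroblast growth factors, fell 1.48-fold to 1.68-fold with adjusted p between 0.00113 and 0.0179. The Tmem131l call was lost without L12A (adjusted p = 0.0523). The kinase Dapk2, the thiamine transporter Slc19a2 and Apol7a, of which 15.7% is shared with other genes, fell 1.68-fold, 1.46-fold and 1.49-fold. Each of these 3 calls was lost without any of 6 or 7 libraries (adjusted p up to 0.0859).

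**Figure D5:**
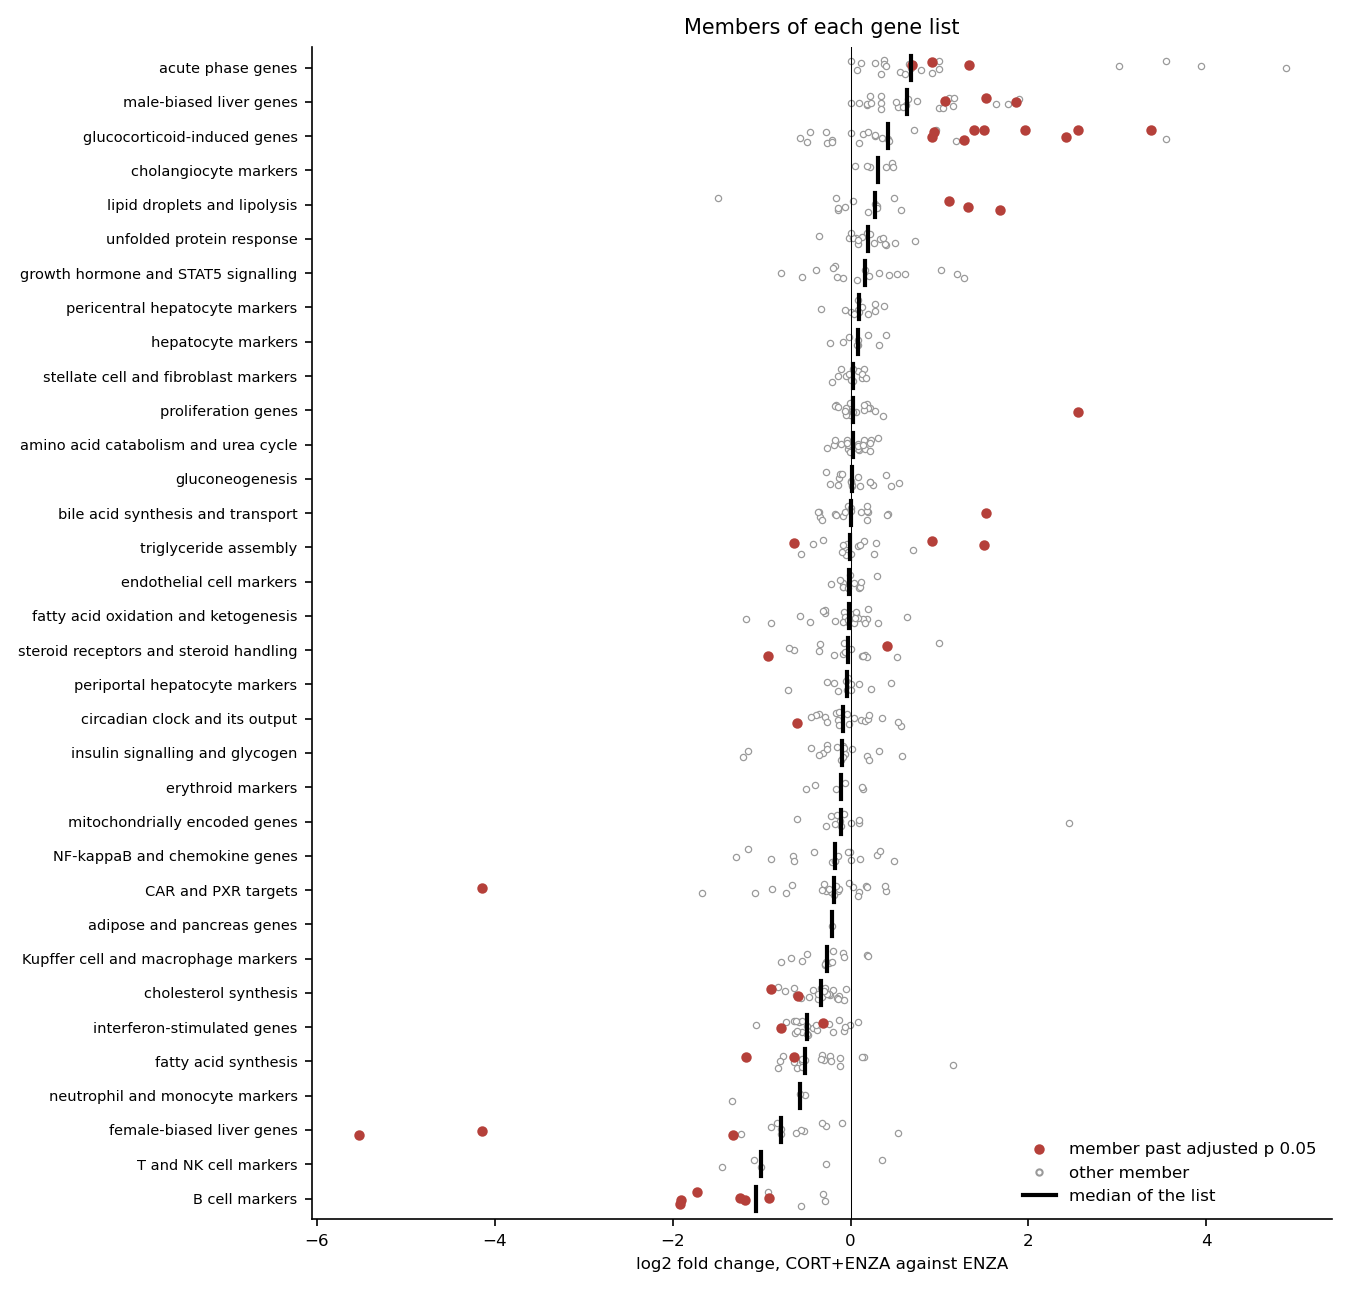
Log2 fold change for CORT+ENZA against ENZA of each measured member of 34 gene lists (points, filled where the member passed an adjusted p of 0.05) with the median of each list as a vertical bar. The acute phase, male-biased and glucocorticoid-induced lists have the highest medians (0.68, 0.63 and 0.42) and the B cell list the lowest (-1.06).

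The genes with the smallest p for the difference between the effects with and without enzalutamide did not pass adjustment (adjusted p = 0.994 for each). Ier2, an immediate early gene, was at 17.9, 20.2 and 24 CPM in ENZA and at 24.5, 27.9 and 36.6 CPM in CORT+ENZA mice. It rose 1.42-fold (0.50 ± 0.12, adjusted p = 0.0286) without overlap, against -0.23 ± 0.12 without enzalutamide (adjusted p = 0.398), and the difference of 0.73 ± 0.17 had an unadjusted p of 0.000225. The Ier2 call was lost without any of 5 libraries (adjusted p up to 0.0742). Ankrd37, a hypoxia-inducible ankyrin protein, had effects of 1.14 ± 0.31 and -0.52 ± 0.30, neither past the threshold (adjusted p = 0.0595 and 0.445), although the first passed without L24A or L30A (adjusted p = 0.0281 and 0.0428). For Tc2n, Mxra8 and Gtf2a1 the effects were -0.46, -0.26 and -0.23 with enzalutamide and 0.33, 0.26 and 0.20 without it, and none passed.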

How the data were processed

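Livers of 24 mice of the acute arm entered the fit, 12 of them in the comparison. Per the labels, RNA was taken from snap-frozen liver and stranded mRNA libraries were sequenced as 100-base paired ends. The values the authors deposited are raw read counts per gene, not normalized or pooled. Per the submitters' processing notes, FastQC, MultiQC, STAR 2.7.3a and HTSeq 0.12.4 were used with build mm10. The sources used here name neither the gene annotation nor whether HTSeq counted by strand, which leaves genes that overlap or lie antisense to another uncertain. The table named 55573 gene IDs, 55394 of them paired with a symbol, and 5 summary lines that name no gene were dropped. Coordinates of genes are from GENCODE M21 (GRCm38).

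The deposited counts were tested with edgeR 4.0.16 in R 4.3.3 (filterByExpr with a minimum count of 10 and total of 15, TMM, robust quasi-likelihood fit of the 4 group means over 24 libraries, no covariate). The Benjamini-Hochberg adjustment ran over 13733 genes. A log2 fold change is given ± SE, and a level in CPM. The scripts were tested on simulated data. Alternatives were DESeq2 1.42.0, limma-voom with quality weights (limma 3.58.1), RLE size factors, 2 other low-count filters, a fit of the 12 libraries, mouse-number sets as a term, and libraries left out. A gene is called uncertain where at least 10% of the 50-base stretches of its longest transcript occur in another gene.

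Named genes are the 15 with the largest change in each direction (past an adjusted p of 0.05, with the higher group at 5 CPM or more, no overlap between mice, no predicted gene), called members of the 34 gene lists, the 2 members with the smallest p of lists without a call, a few genes always (such as Fkbp5, Tsc22d3 and Nr3c1) and 5 with the smallest p for the difference. Some are left out for length, and 2 genes that the rule names are not reported here. The comparison and the lists were chosen with earlier results of these data known. Per the labels every library came from its own mouse, and no 2 libraries of a group agreed within sampling noise (lowest chi-square of 10.6 per degree of freedom in CORT+ENZA).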

Additional observations from a re-analysis of the deposited data

Results flagged for a closer look

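A mouse far from the other 5 of its group was looked for in 254 sets of 6 values, by a gap to the nearest mouse over 0.625 of the range (Dixon's test). The sets held the library measures and part of the named genes in both groups, so the flags below are not complete. Adgre1 and Cxcl9 carry no flag, although ENZA mouse L29A lay past this cutoff for both. It was at 36.3 and 38.1 CPM, against at most 9.66 and 8.67 CPM in the other ENZA mice. Such a mouse was found in 35 of the sets. The cutoff flags about 1 in 20 sets of independent normal values. These sets share mice and hold genes picked after their values were seen, so 35 cannot be set against that rate.

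CORT+ENZA mouse L30A was high for Saa2 (0.995), Orm2 (0.99), Saa1 (0.978), Lcn2 (0.966), mt-Co3 (0.959), Hp (0.849), Serpina3n (0.785), Fam107a (0.713) and Lrg1 (0.692), and low for Eif4ebp3 (0.696). All transcripts named high, except Fam107a and mt-Co3, encode acute phase or inflammation-linked plasma proteins. mt-Co3 was at 183 CPM in L30A against at most 12.4 CPM in the other CORT+ENZA mice, and 99.9% of its stretches occur in another gene.

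ENZA mouse L29A was high for Lcn2 (0.97), Orm2 (0.963), Gbp2 (0.925), Nkg7 (0.852), Lck (0.846), Ifi44 (0.745) and Saa2 (0.68), and for the summed neutrophil and monocyte (0.822), Kupffer cell (0.799) and T and NK cell (0.731) markers. CORT+ENZA mouse L36A was high for Cyp2a4 (0.9), Lck (0.9), summed T and NK cell markers (0.842), Cyp2g1 (0.767) and the mitochondrial share (0.652), and low for Fkbp5 (0.689).

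CORT+ENZA mouse L18A was low for Saa4 (0.791) and high for Fnip2 (0.725) and Per3 (0.702). It therefore lay toward the ENZA group for all 3. ENZA mouse L11A was high for Mxra8 (0.768), Zbtb16 (0.707) and Il1r1 (0.66). Single flags fell on ENZA L23A (low, Ogt, 0.711), CORT+ENZA L12A (high, Xbp1, 0.692) and ENZA L17A (high, Mt1, 0.643).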

How the results depend on the processing

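The count of 248 genes (148 higher, 100 lower) was 461 with DESeq2 (241 and 220), 634 with limma-voom (331 and 303), 156 with no low-count filter (92 and 64), which tested 29712 genes, and 142 without L29A and L36A (87 and 55). These held 100%, 95.6%, 60.9% and 50% of the 248 genes, and no alternative called any of them in the opposite direction. Leaving out each of the 12 libraries gave 118 to 253 genes, 72 to 147 higher and 37 to 106 lower. RLE size factors (243), the stricter filter (241), mouse-number sets as a term (271), the fit of 12 libraries (249) and the fit without L19A and L36A (343) stayed within 1.5 times. In that order they held 97.2%, 94.8%, 90.7%, 72.2% and 83.1% of the 248 genes, so the fit of 12 libraries kept 179 of them despite its near-equal count. The count without enzalutamide was 432 with DESeq2 against 222, and 323 without L19A and L36A. The difference between the effects had 0 genes in every fit run. The cause of these shifts was not tested.

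No named gene that was called reversed. With limma-voom 6 called named genes lost their call, namely Cd79a, Pax5, Igkc, Cyp2a4, Cyp2b9 and Hsd17b2. Over genes and alternatives, 286 values lost and 42 gained a call and 2479 kept their side. List counts moved by over 1.5 times in 174 of 1428 values and list medians by more than the spread between mice in 22 of 714. The stricter palindrome was in 0.0151% of promoters against 0.318%. Mouse numbers do not repeat between the groups and the labels pair no mice, so the fit with number sets is not a paired design.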

Other observations

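Further genes with small p and no overlap between the groups, picked after their values were seen, were described as values. Pex11a, a peroxisome division gene, was at 44.6, 57.1 and 60.2 CPM in ENZA and at 73.3, 80.1 and 85.8 CPM in CORT+ENZA mice (0.53 ± 0.08, adjusted p = 0.000384, and 0.62 ± 0.08 without enzalutamide). Npm3, a nucleolar histone chaperone, rose 1.87-fold (0.91 ± 0.13, adjusted p = 0.000391) but is uncertain, with 31.9% of its stretches shared with other genes. St3gal5, which makes the ganglioside GM3, rose 1.81-fold (0.86 ± 0.14, adjusted p = 0.00171). Slc45a3, a sugar transporter known in human prostate as the androgen-regulated protein prostein, rose 1.71-fold (0.78 ± 0.14, adjusted p = 0.00287) and by 0.99 ± 0.14 without enzalutamide, and is uncertain with 10.6% shared. Apex2, Adap2, Cntrl, Fam214a, Eif4g3 and Tns1, the focal adhesion protein tensin 1, rose 1.34-fold to 1.63-fold. Of these 10, Eif4g3 alone did not pass without enzalutamide (0.22 ± 0.07, adjusted p = 0.143).

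Of the genes picked in the same way that fell, Ogt, the O-GlcNAc transferase that reads nutrient supply, fell 1.36-fold (-0.44 ± 0.09, adjusted p = 0.00773). Lpcat3, which loads polyunsaturated chains into phospholipids, fell 1.3-fold (-0.38 ± 0.08, adjusted p = 0.0123). Btg1, an antiproliferative gene, was at 35.7, 40.9 and 53.1 CPM in ENZA and at 27.7, 28.4 and 30.8 CPM in CORT+ENZA mice (-0.53 ± 0.12, adjusted p = 0.0147), against -0.05 ± 0.12 without enzalutamide (adjusted p = 0.902), a difference with an unadjusted p of 0.00599. Cbx5, the heterochromatin protein HP1 alpha, fell 1.3-fold (-0.37 ± 0.08, adjusted p = 0.00902), against -0.06 ± 0.08 without enzalutamide, a difference with an unadjusted p of 0.00702. Tmem184b, Pxdc1, Hook3, Nqo2, Clasp2 and Pde8a fell 1.25-fold to 1.43-fold, and the Clasp2 call was lost without L17A (adjusted p = 0.0575). Neither difference passed adjustment over all genes (adjusted p = 0.994).

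Il1r1 and Il15 were also picked after their values were seen. Il1r1, the receptor of interleukin 1, rose 2.31-fold (1.21 ± 0.22, adjusted p = 0.00461), with ENZA mouse L11A at 104 CPM inside the CORT+ENZA range of 92.1 to 167 CPM, and by 1.14 ± 0.22 without enzalutamide. Il15, a cytokine that sustains NK cells, fell 2.38-fold without overlap, at medians of 1.85 and 0.814 CPM (-1.25 ± 0.24, adjusted p = 0.00606).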
